A study of Mus musculus with 6 samples.

Results

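The vacuolar proton pump (V-ATPase) was followed through 10 of its subunit genes in RNA-seq of mouse RPE-choroid, the retinal pigment epithelium (RPE) together with the vascular choroid beneath it. The genes were Atp6v0d2 and 9 partner subunits, Atp6v0d1, Atp6v0a1, Atp6v0b, Atp6v0c, Atp6v1a, Atp6v1b2, Atp6v1c1, Atp6v1e1 and Atp6v1h, all found by symbol among the 15663 genes of the tables. They were chosen with their values in the comparison of subretinal fibrosis (SRF) with control already known, so their levels and differences between the groups are given as a description, without a test. The remaining V-ATPase subunits and genes that act beside the pump were tested in a fit across all genes. Their lists, and those of cell type markers, were also chosen with earlier results of these data known. Their counts and p-values are therefore not independent evidence.

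The control group was 3 untreated mice, and the SRF group was 3 mice with laser-induced fibrosis. The strain is C57BL/6 in the sample labels and C57BL/6J in the methods of the study. Per the methods of the study the mice were males aged 8 to 10 weeks. In the SRF mice 4 laser burns were placed in each eye, each lesion was burned again 10 days later, and RPE-choroid was taken 20 days after the second laser. No genetic change is given for any of the mice.

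The V-ATPase uses ATP to pump protons into lysosomes, endosomes and other compartments, and in osteoclasts across the cell surface. Its V1 sector in the cytoplasm splits ATP, its V0 sector in the membrane carries the protons through a ring of proteolipids, and the d subunit sits on that ring where the central stalk meets it. Several subunits exist as isoforms made by separate genes. Of the d isoforms, d1 (Atp6v0d1) is found in nearly all cells, while d2 (Atp6v0d2) is known from osteoclasts, macrophages and the kidney. In the RPE, which takes up and digests photoreceptor outer segments every day, acid lysosomes are in constant use.

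Atp6v0d2 (ENSMUSG00000028238) lies at chr4:19876841-19922605 on the minus strand of GRCm38, and Atp6v0d1 (ENSMUSG00000013160) at chr8:105524465-105566047 on the minus strand. The other subunit genes are on chromosomes 1, 4, 6, 8, 11, 15, 16 and 17. The coding sequences of the d isoform genes align over 1053 bases and are identical at 694 of them, or 65.9%. A stretch of 60 coding bases from exon 2 of 8 of each gene, coding bases 138 to 197, is shown because it holds the longest identical run, 17 bases. Bases that differ between the genes are in capitals, and there are 16 of them (GENCODE M21 transcripts, chr4:19910692-19910751 and chr8:105539426-105539485, both on the minus strand).
Atp6v0d2: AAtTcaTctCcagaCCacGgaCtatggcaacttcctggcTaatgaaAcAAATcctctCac
Atp6v0d1: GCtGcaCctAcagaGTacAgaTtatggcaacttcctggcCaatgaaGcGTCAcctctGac
No run of 50 bases is shared between the transcript of either gene and any other annotated gene, so reads of that length can be told apart. The same held for Atp6v0a1, Atp6v1b2, Atp6v1c1, Atp6v1e1 and Atp6v1h. For Atp6v0c, 32.5% of its 50-base runs also occur in the pseudogenes Atp6v0c-ps1 and Atp6v0c-ps2, and its counts are therefore uncertain. The shared portion was 2.42% for Atp6v0b, with an antisense gene, and 0.956% for Atp6v1a. Atp6v1b2, Atp6v1e1 and Atp6v1h each overlap a listed gene on the opposite strand, and reads of such pairs cannot be separated if strand was not kept.

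The 6 libraries held 13667310 to 24356023 counts. RPE markers were abundant in all of them, with 15 genes summing to 38761 to 61240 CPM, counts scaled to the size of the library. Control 1 and SRF 3 stood apart from the rest through RNA of the neural retina. Their 15 photoreceptor markers summed to 13321 and 12862 CPM, against 766.3 to 1837 CPM in the other libraries. Markers of the inner retina, 9 genes, summed to 1162 and 1163 CPM in these libraries and to 208 to 219.8 CPM in the others. Values without control 1 and SRF 3 are given beside several of the results that they move. Calls that change without these libraries, such as those of Acp5 and Rragc, are given in the closing section.

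Atp6v0d2 had a low level in control tissue and a higher level in every SRF library. Its CPM was 5.29, 10.2 and 9.55 in controls 1 to 3 and 24.0, 35.2 and 34.8 in SRF 1 to 3. The groups did not overlap, the lowest value was in control 1 and the highest in SRF 2. These levels rest on 71, 188 and 229 counts in the controls and 444, 632 and 622 counts in SRF. The mean level was 8.35 ± 2.67 CPM in controls and 31.3 ± 6.36 CPM in SRF (SD, n = 3), a ratio of 3.76. The log2 fold change of counts, SRF minus control, was 1.90 with a standard error (SE) of 0.29 from the edgeR fit. Of the 13454 genes fitted, 5 had a higher log2 fold change. Without control 1 and SRF 3 it was 1.58. In bulk tissue, a change in the number of cells that make an RNA cannot be told apart from a change in RNA per cell.

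Atp6v0d1, the d isoform of most cells, gave 157, 138 and 144 CPM in the controls and 135, 146 and 153 CPM in SRF. The SRF values lay within the range of the controls except for SRF 1, which was slightly below it. Its log2 fold change was -0.02 (SE 0.11), and the log2 fold change of Atp6v0d2 exceeded it by 1.92.

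**Figure D1:**
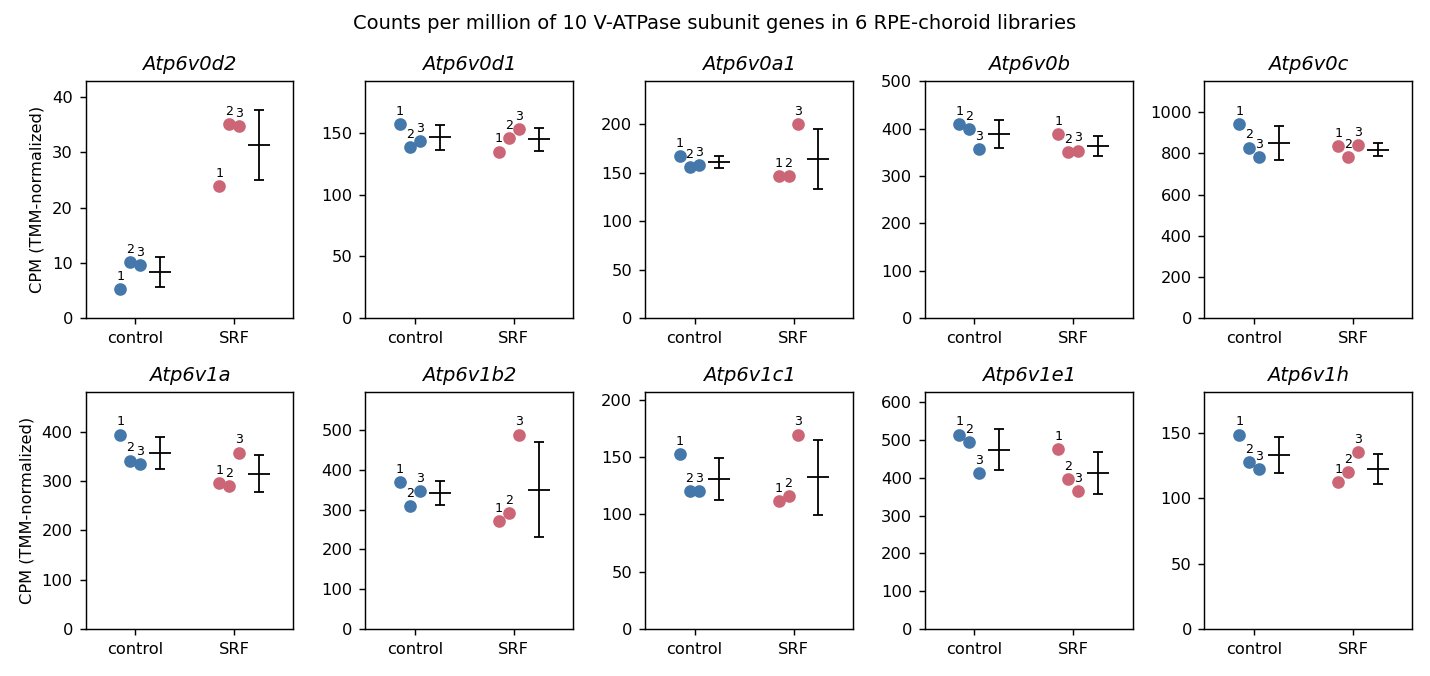
TMM-normalized CPM (scaled counts, linear axis from 0 in each panel) of the 10 subunit genes in 3 control and 3 SRF libraries, numbered by mouse. Bars give the mean and SD of each group. Atp6v0d2 is the gene whose groups do not overlap (5.29 to 10.2 CPM against 24.0 to 35.2 CPM), while SRF 3 stands above the other SRF libraries for Atp6v0a1, Atp6v1b2 and Atp6v1c1.

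The remaining V0 partners had levels that overlapped between the groups. Atp6v0a1, the a isoform that anchors the stator and is best known from neurons, gave 168, 156 and 158 CPM in the controls and 146, 146 and 201 CPM in SRF, with SRF 3 the highest of all. Its log2 fold change was 0.03 (SE 0.15), and -0.11 without control 1 and SRF 3. Atp6v0b encodes the c'' proteolipid of the ring and gave 356 to 410.0 CPM in the controls and 350.3 to 388 CPM in SRF (log2 fold change -0.09, SE 0.11, and -0.04 without control 1 and SRF 3). Atp6v0c, the c proteolipid that makes up most of the ring, gave 781 to 943 CPM in the controls and 780.2 to 839 CPM in SRF (log2 fold change -0.06, SE 0.12).

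No V1 partner had separate groups. Atp6v1a, the subunit that splits ATP, gave 394, 341 and 333 CPM in the controls and 297, 289 and 357 CPM in SRF. The lower values were in SRF 1 and SRF 2, and SRF 3 fell within the control range. Its log2 fold change was -0.18 (SE 0.13). Atp6v1b2, the non-catalytic B subunit of most tissues, gave 369.7, 308 and 348 CPM in the controls and 270.1, 292 and 489 CPM in SRF. Here SRF 1 and SRF 2 lay below all controls and SRF 3 above all of them, so that the log2 fold change of 0.03 (SE 0.24) averages values on opposite sides of the controls. Without control 1 and SRF 3 it was -0.23. Atp6v1c1, whose product takes part in the reversible joining of V1 to V0, showed the same order with 152, 120.1 and 120.5 CPM in the controls and 111, 116 and 169.6 CPM in SRF (log2 fold change 0.01, SE 0.20, and -0.09 without control 1 and SRF 3).

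Atp6v1e1, a part of the peripheral stalk, gave 515, 496 and 414 CPM in the controls and 476, 397 and 366 CPM in SRF. SRF 2 and SRF 3 were below all controls and SRF 1 was not. The log2 fold change of -0.20 (SE 0.15) was the lowest among the partners, and it was -0.06 without control 1 and SRF 3. Atp6v1h, the regulatory H subunit that holds back free V1, gave 123 to 149 CPM in the controls and 113 to 135 CPM in SRF (log2 fold change -0.12, SE 0.13).

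Across the 9 partners, the log2 fold change of 3 was above 0 and that of 6 below it, with a median of -0.06 and a range of -0.20 to 0.03. The median over all fitted genes was 0.00125, and 63.4% of these genes lay within 0.2 of 0 on the log2 scale, as did 8 of the 9 partners. The groups were separate for 1 of the 10 subunit genes, Atp6v0d2, where 13.1% of all fitted genes had separate groups, 6.71% with SRF higher and 6.43% with SRF lower. With edgeR and Benjamini-Hochberg adjustment, 0 of the 10 were called, and 0% of all fitted genes were. The limits for a call were 0.05 for the adjusted p-value and 0.5 for the size of the log2 fold change. At an unadjusted edgeR p-value under 0.05 the count was 1 of 10 beside 7.01% of all genes, 4.16% higher and 2.85% lower in SRF. With DESeq2 the count was 1 of 10, Atp6v0d2, beside 1.14% of all genes, 0.803% higher and 0.334% lower. Because the genes were chosen on this contrast, nothing is read from these counts.

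**Figure D2:**
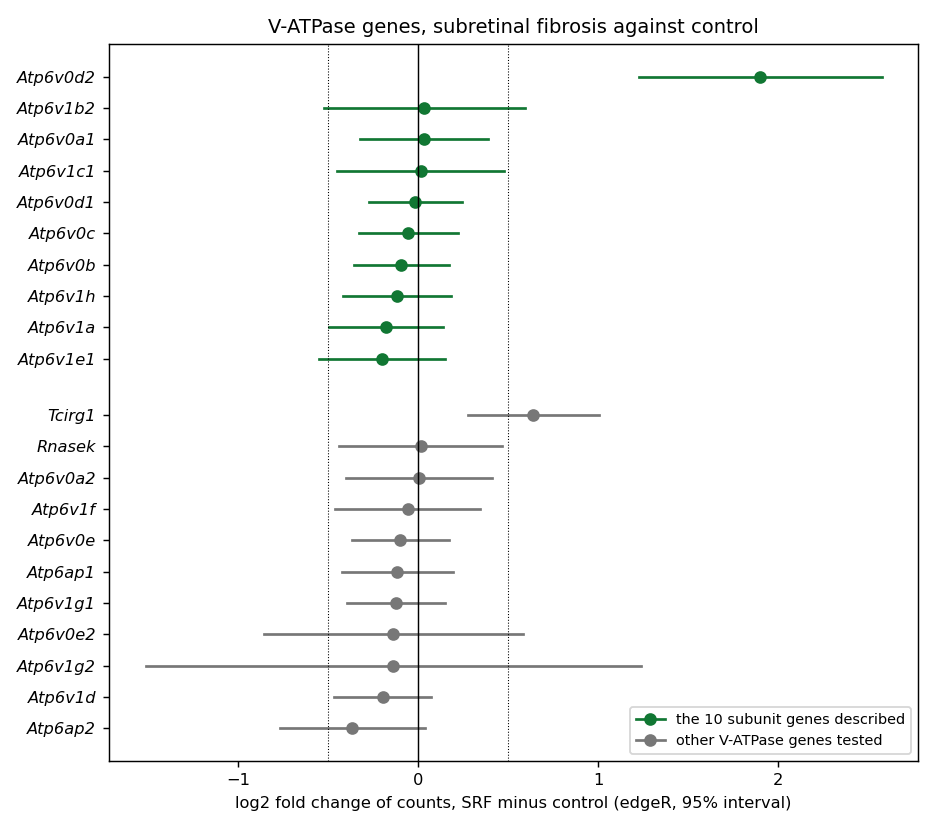
Log2 fold change of counts, SRF minus control, with 95% intervals from the edgeR fit, for the 10 subunit genes (green) and the other V-ATPase genes tested (grey), and dotted lines at 0.5 either way. The points of the 9 partners lie between -0.20 and 0.03, that of Atp6v0d2 lies at 1.90, and among the other genes Tcirg1 is the highest at 0.64.

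Levels of different genes can be compared per transcript length, for which the FPKM, which are scaled by transcript length and library, were used. In control tissue Atp6v0c had the highest level at 706 ± 69.6 FPKM (SD, n = 3), and no other gene of the 10 reached its lowest value of 650.1 FPKM. Atp6v0b followed at 382 ± 27.5 FPKM and Atp6v1e1 at 356 ± 39.1 FPKM, and these neighbours overlapped. Atp6v1b2 came next at 119 ± 11.2 FPKM, above all values of the genes below it. Atp6v0d1 at 88.2 ± 6.18 FPKM and Atp6v1a at 84.6 ± 7.81 FPKM overlapped, as did Atp6v1h at 64.9 ± 7.64 FPKM and Atp6v1c1 at 62.6 ± 9.29 FPKM. Atp6v0a1 had 41.2 ± 1.34 FPKM. Atp6v0d2 was the lowest of the 10 at 3.22 ± 1.02 FPKM in controls and also in SRF, at 12.5 ± 2.57 FPKM, where Atp6v0a1 had 44.4 ± 7.404 FPKM.

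The d subunit RNA thus came mostly from Atp6v0d1 in both groups. Atp6v0d2 made up 2.11%, 4.52% and 4.09% of the summed FPKM of the d genes in controls 1 to 3 and 10.2%, 13.4% and 12.7% in SRF 1 to 3. The shares of the groups did not overlap, with means of 3.57 ± 1.28% and 12.1 ± 1.66% (SD, n = 3). The summed d subunit level was 91.4 ± 5.19 FPKM in controls and 102.7 ± 8.11 FPKM in SRF. Here the groups overlapped, with SRF 1 at 93.45 FPKM below control 1 at 97 FPKM. For the a subunit, the share of Tcirg1, which encodes the a3 isoform of lysosomes and osteoclasts, was 18.5%, 17.8% and 15.8% in the controls and 28.6%, 27.1% and 17.1% in SRF. SRF 3 fell among the controls. The shares of Atp6v0e2 and Atp6v1g2, isoforms best known from the nervous system, were highest in the same libraries, control 1 and SRF 3. Atp6v1g2 held 9.73% of the G subunit FPKM in control 1 and 11.8% in SRF 3, against 3.79% to 5.18% in the other 4 libraries. Atp6v0e2 held 27.2% and 30.4% of the e subunit FPKM in those libraries, against 15.3% to 20.4% in the others. Atp6v1e2 and Atp6v1c2 each stayed under 1% of their subunit in every library.

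**Figure D3:**
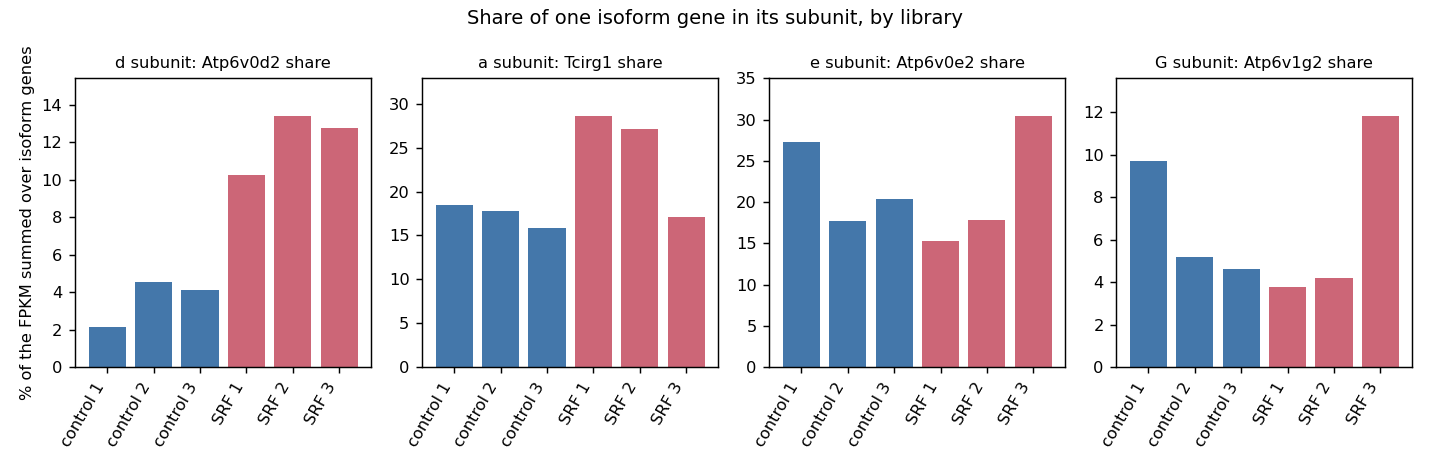
Percentage of the FPKM summed over the isoform genes of a subunit that came from Atp6v0d2, Tcirg1, Atp6v0e2 or Atp6v1g2, by library (bars from 0, each panel with its own scale, blue control and red SRF). The Atp6v0d2 share is 2.11% to 4.52% in the controls and 10.2% to 13.4% in SRF, and the Atp6v0e2 and Atp6v1g2 shares are highest in control 1 and SRF 3.

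Among the partners, 3 were clearly higher in SRF 3 than in the other SRF libraries. Atp6v1b2 in SRF 3 was 1.74 times the mean of the other SRF libraries, Atp6v1c1 1.496 times and Atp6v0a1 1.37 times. Control 1 exceeded the mean of the other controls by a smaller ratio, 1.13 for Atp6v1b2, 1.27 for Atp6v1c1 and 1.07 for Atp6v0a1. Atp6v0d2 went the other way in the controls, at 0.535 times the others in control 1, and was at 1.18 times the others in SRF 3. When the photoreceptor marker level of each library was added to the fit, the log2 fold change of Atp6v0d2 was 1.90 and that of Atp6v1b2 0.02.

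Macrophage markers were mostly higher in the SRF libraries too. Of 15 macrophage genes, 14 had a log2 fold change above 0, with a median of 0.80 and a range of -0.03 to 1.49. Their summed level was 1469 to 1922 CPM in the controls and 3382 to 4855 CPM in SRF, and no marker was at 0 in any library. Lyz2 was the largest part of this sum, with 743 to 1004 CPM in the controls and 2078 to 3305 CPM in SRF. With DESeq2, 6 of the 15 were called higher, beside 0.803% of all genes. With edgeR 0 of 15 were called, although 10 of 15 had an unadjusted p-value under 0.05 with SRF higher, beside 4.16% of all genes. The markers were listed with earlier results known, and the study had reported Cd68, C1qb and Lyz2 as up-regulated in these libraries. Nothing is read from these counts. The part of macrophage number in the level of Atp6v0d2 was not tested. Atp6v0d2 was also set against 6 single genes of these 15, and the mean ratio was higher in SRF for all 6. Atp6v0d2 was chosen on this contrast, and its log2 fold change of 1.90 lay above the range of the markers. The direction of the ratios follows from that choice, and nothing is read from it. The 3 shown were chosen after the values were seen. Atp6v0d2 was 7.72%, 11.5% and 12.5% of the CPM of Cd68, a lysosomal glycoprotein of macrophages, in the controls and 15.5%, 18.6% and 25.2% in SRF. Against Lyz2, lysozyme, the mean was 0.895 ± 0.162% in controls and 1.24 ± 0.224% in SRF (SD, n = 3). SRF 2 and control 2 were the closest, at 1.065% and 1.016%, and the groups did not overlap. Against Csf1r, the receptor for macrophage growth factor, whose own log2 fold change was -0.03, it was 5.08 ± 1.33% and 19.8 ± 4.74%. RPE markers were mostly lower, 11 of 15, with a median of -0.30 and a range of -0.77 to 0.32. DESeq2 called 3 of them lower, beside 0.334% of all genes, and edgeR 0. An unadjusted edgeR p-value under 0.05 with SRF lower was found for 6, beside 2.85% of all genes. Endothelial markers had a median of 0.03.

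**Figure D4:**
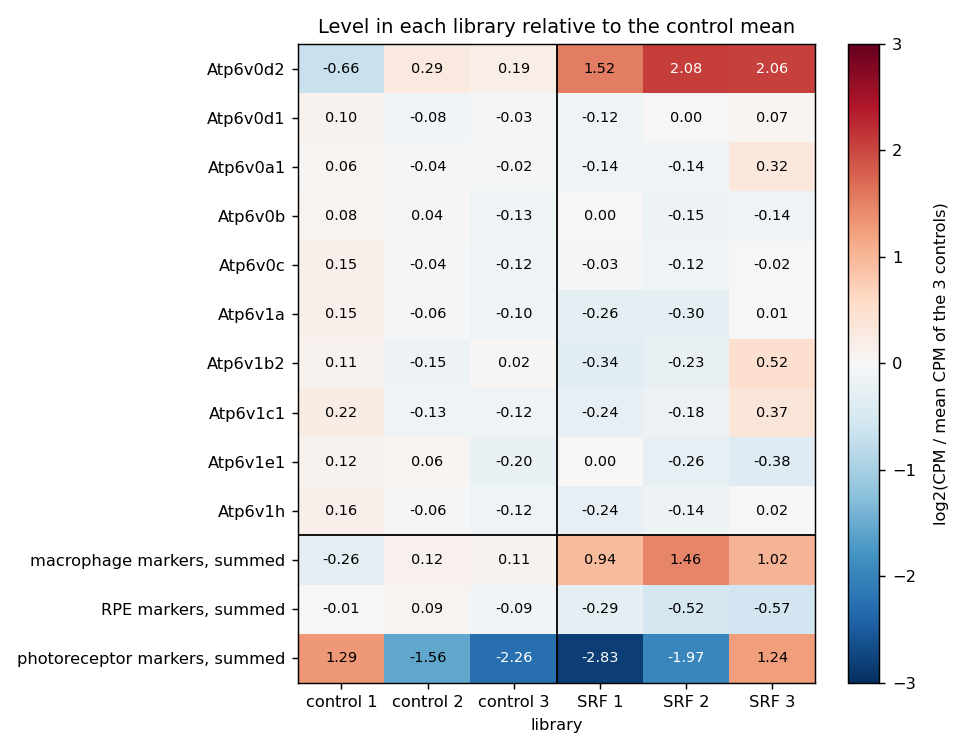
Log2 of the CPM in each library over the mean CPM of the 3 controls, for the 10 subunit genes and the summed macrophage, RPE and photoreceptor markers (red above and blue below the control mean). Atp6v0d2 is at 1.52, 2.08 and 2.06 in SRF 1 to 3, the macrophage sum at 0.94, 1.46 and 1.02, and the photoreceptor sum is above 0 in control 1 and SRF 3. The largest part of the macrophage sum is Lyz2.

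Of the 16 remaining V-ATPase genes on the list, 13 are in the tables and 11 were tested. Atp6v0a4, Atp6v1b1 and Atp6v1g3 were not analysed here, and Atp6v1c2 and Atp6v1e2 had too few counts. The log2 fold change was above 0 for 3 and below 0 for 8, with a median of -0.12. By edgeR and by DESeq2 0 of the 11 were called, where DESeq2 called 1.14% of all genes. An unadjusted edgeR p-value under 0.05 was found for 1, Tcirg1, beside 7.01% of all genes, and nothing is read from this count. Tcirg1 gave 28.5, 29.3 and 27.4 CPM in the controls and 46.1, 51.2 and 35.6 CPM in SRF. All SRF values lay above all controls, with SRF 3 the nearest to them. Its log2 fold change was 0.64 (SE 0.15), with a Benjamini-Hochberg adjusted p of 0.383 by edgeR and 0.0633 by DESeq2. Without control 1 and SRF 3 the log2 fold change was 0.78 with an adjusted p of 0.0436 by edgeR, a call. That fit has fewer mice and leaves out the SRF value nearest to the controls. It called 153 of 13145 genes, where the fit of all libraries called 0.

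The lowest value among these genes was that of Atp6ap2, the accessory subunit also called the prorenin receptor. It gave 372, 317 and 391 CPM in the controls and 248, 246 and 344 CPM in SRF, and the groups overlapped through SRF 3 (log2 fold change -0.37, SE 0.17, edgeR adjusted p = 0.763). Without control 1 and SRF 3 its log2 fold change was -0.53. Atp6ap1, the other accessory subunit, had a log2 fold change of -0.12, which was -0.27 without control 1 and SRF 3. Atp6v1d, a subunit of the central stalk, was at -0.20, Atp6v1f at -0.06 and Atp6v1g1 at -0.12, and without control 1 and SRF 3 these were -0.12, 0.07 and -0.03. Atp6v0e, a small membrane subunit, was at -0.10, Atp6v0a2, an a isoform of the Golgi and endosomes, at 0.01, and Rnasek, which binds the pump, at 0.01. The nervous system isoforms Atp6v0e2 and Atp6v1g2 were both at -0.14, the latter with an SE of 0.58, the widest of the group, and its level ran from 17.6 CPM in SRF 2 to 59.9 CPM in SRF 3. Without control 1 and SRF 3 they were at -0.32 and -0.41, in the order given, and without control 1 alone at 0.07 and 0.44. The groups of these genes overlapped, Tcirg1 apart.

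Genes that act beside the pump were tested in the same fit. For the counts below, the shares over all genes were 0% called by edgeR and 1.14% called by DESeq2. The share at an unadjusted edgeR p-value under 0.05 was 7.01%. Of 10 genes for assembly or regulation of the pump, 2 had a log2 fold change above 0 and 8 below, with a median of -0.11. They include genes of the RAVE-type complex that joins V1 to V0. By edgeR and DESeq2 0 were called, and 0 had an unadjusted p-value under 0.05. The values furthest from 0 were -0.27 for Rogdi and -0.21 for Dmxl2. Of 10 lysosomal ion channels and exchangers 4 were above 0 and 6 below, with a median of -0.05, 0 calls by either tool and 0 unadjusted p-values under 0.05. The furthest were the chloride exchanger genes Clcn6 at 0.30 and Clcn3 at -0.24. Of 10 Ragulator and Rag genes, which tie the pump to nutrient sensing at the lysosome, 1 was above 0, Rragc, a Rag GTPase. By edgeR 0 were called and 2 had an unadjusted p-value under 0.05, Rragc and Lamtor5, the latter named after its values were seen (log2 fold change -0.27). Rragc gave 41.4, 34.5 and 33.5 CPM in the controls and 55.9, 55.6 and 49.8 CPM in SRF, without overlap. Its log2 fold change was 0.56 (SE 0.13), with an adjusted p of 0.348 by edgeR and 0.028 by DESeq2, which called it. Of this list, 1 gene had separate groups with SRF higher, Rragc, and 2 with SRF lower, Lamtor3 and Lamtor5. Over all genes the shares were 6.71% higher and 6.43% lower.

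The MiT/TFE factors are transcription factors that bind CACGTG-type sites in the promoters of lysosomal genes. Of the 4, Tfec had too few counts, and the other 3 did not move alike. Tfeb gave 15.04, 18.7 and 14.9 CPM in the controls and 27.7, 25.2 and 17.3 CPM in SRF, overlapping through SRF 3 (log2 fold change 0.53, SE 0.21, and 0.65 without control 1 and SRF 3). Mitf, which also directs pigment cell genes in the RPE, gave 52.3, 66.0 and 62.4 CPM in the controls and 47.8, 41.2 and 34.8 CPM in SRF, all below the controls (log2 fold change -0.55, SE 0.16). Tfe3 had a log2 fold change of 0.30 (SE 0.11). All 3 had an unadjusted edgeR p-value under 0.05, beside 7.01% of all genes. By edgeR 0 were called, the adjusted p being 0.665, 0.448 and 0.601 in the order given, and by DESeq2 0 as well.

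Atp6v0d2 is best known from osteoclasts, and 12 genes of osteoclast formation and function were listed. Of the 7 tested, all had a log2 fold change above 0, with a median of 0.36. By edgeR 0 were called and 2 had an unadjusted p-value under 0.05, beside 7.01% of all genes. They were Acp5 and Cd9, the latter named after its values were seen (log2 fold change 0.36). DESeq2 called 1, beside 1.14% of all genes. It was Acp5, the tartrate-resistant acid phosphatase of osteoclasts and macrophages. Acp5 gave 12.9, 12.1 and 12.9 CPM in the controls and 25.2, 23.3 and 20.8 CPM in SRF, with a wide gap between the groups. Its log2 fold change was 0.87 (SE 0.14), with an adjusted p of 0.198 by edgeR and 0.000918 by DESeq2. Dcstamp, a fusion gene, had too few counts to test, at 0.149 to 1.34 CPM, and Ocstamp, Calcr, Oscar and Siglec15 were not analysed here.

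The 6 genes whose log2 CPM was most like that of Atp6v0d2 over the 6 libraries were Fcrls (Pearson r = 0.995), Sh3pxd2b (0.990), Tfe3 (0.987), Oplah (0.985), Pld3 (0.984) and Laptm5 (0.983). The 6 points share their groups, so the difference between the groups enters every r, and all 6 genes had separate groups with SRF higher. Fcrls is an Fc receptor-like gene of microglia and macrophages, Pld3 a lysosomal nuclease and Laptm5 a lysosomal membrane protein of blood cells. Fcrls gave 14.4, 19.1 and 20.03 CPM in the controls and 26.9, 32.2 and 32.7 CPM in SRF. Its lowest value was in control 1, as for Atp6v0d2 and the rest of the 6. Its difference was smaller than that of Atp6v0d2, with a log2 fold change of 0.78 (SE 0.17). The r of the 9 partners with Atp6v0d2 ran from -0.72 for Atp6v1e1 to 0.07 for Atp6v0a1.

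Promoter sequences from RefSeq (GRCm38.p6, 250 bases before to 50 after the start) were used for Atp6v0d1, Atp6v0a1, Atp6v0b, Atp6v0c, Atp6v1a and Atp6v1e1, 6 of the 10 genes, in 8 windows. The promoters of Atp6v0d2, Atp6v1b2, Atp6v1c1 and Atp6v1h were not analysed here. CACGTG, the core of the site bound by the MiT/TFE factors among others, reads the same on both strands and was found in 3 of the 8 windows (37.5%), against 7.15% of 32851 windows of all genes and 9.57% of 13550 windows of the tested genes. By gene it was in 3 of 6, against 2187 of 27025 genes and 1211 of 10520 tested genes. Among the other V-ATPase genes it was in 1 of 16 windows, that of Atp6v0e. Other motifs were also searched. The longest form of this site was in 0 of the 8 and 0 of the 16 windows. It was rare over all windows too, at 0.326%. A shorter extended form was in 3 of the 8. The motifs without CACGTG were each in 0 or 1 of the 8. A link to the MiT/TFE factors was not tested. A match is a description of the letters and does not show binding. The 30 bases around the matches are shown with CACGTG in capitals, to give the position and neighbourhood of each match. They lie on the minus strand at chr4:117887339-117887368 (Atp6v0b, matches beginning 36 and 18 bases before the start), chr8:105566050-105566079 (Atp6v0d1, 3 bases before) and chr16:44139373-44139402 (Atp6v1a, 131 bases before). The starts are those of RefSeq. In GENCODE the gene Atp6v1a reaches 44139705, so its match lies inside that gene. The Atp6v0a1 window also lies inside its GENCODE gene.
Atp6v0b: ggtCACGTGgggtcggcgcatCACGTGcgc
Atp6v0d1: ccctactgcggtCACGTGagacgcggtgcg
Atp6v1a: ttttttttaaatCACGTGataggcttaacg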

How the data were processed

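RNA-seq of RPE-choroid from 3 control and 3 SRF mice was used, each library given its group and mouse number by its title. The authors filtered reads, counted them on genes with StringTie and deposited the raw counts per gene. The authors also deposited FPKM, scaled by length and library. The genome build, aligner and strandedness are not given in the sources used here. GENCODE M21 on GRCm38 was used because 15659 of the 15663 identifiers were found in it.

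A gene was tested if 2 or more libraries held over 50 of its counts, which left 13454 genes. The fit was made in R 4.3.3 with edgeR 4.0.16 (TMM, glmQLFit, glmQLFTest, group only) and Benjamini-Hochberg adjustment over all of them. The test was run on simulated data first. CPM include the TMM factors. Errors after ± are SDs between mice, and those marked SE are standard errors of the log2 fold change from the edgeR fit. The p-values set the difference between the groups against the spread between mice, which was estimated with information from all fitted genes. The median SE was 0.188 on the log2 scale. A change of that size could not be called, since a call needed 0.5 and an adjusted p-value under 0.05. A gene without a call is not shown to be unchanged. DESeq2 1.42.0 was tried as an alternative, as were limma 3.58.1 on log2(FPKM + 1) and log2(FPKM + 0.1), other scalings and filters, the newer form of the edgeR fit, a replicate block, a photoreceptor covariate and leaving out mice.

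The subunit genes and all lists were chosen with earlier results of these data known. Named were the 10 subunit genes, the other V-ATPase genes, the 6 genes most correlated with Atp6v0d2, and of each further list the genes called by edgeR or DESeq2, otherwise the 2 with the largest absolute log2 fold change, with marker lists summarised.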

Additional observations from a re-analysis of the deposited data

How the results depend on the processing

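The log2 fold change of Atp6v0d2 was 1.90 and ran from 1.58, without control 1 and SRF 3, to 2.07 over the 17 alternatives, and 1.67 to 2.07 when each mouse was left out. Its excess over Atp6v0d1, 1.92, ran from 1.63 to 2.12 when each mouse was left out. The median of the 9 partners, -0.06, ran from -0.13 to 0.03 and was above 0 without control 1.

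The number of genes called was 0, and it was 153 with DESeq2 and also 153 without control 1 and SRF 3, 2 with limma on either FPKM scale, 1 with library totals only, without a filter, with filterByExpr, with the newer edgeR form or with the photoreceptor covariate, and 0 to 5 when each mouse was left out, 5 being without control 1. The number of the 10 subunit genes called was 1 with DESeq2 and 1 without control 1 and SRF 3, and 0 otherwise. The number of other V-ATPase genes called was 1 without control 1 and SRF 3, and 0 otherwise. At an unadjusted p under 0.05 there were 943 genes, 2316 without control 1 and SRF 3, and 439 to 1728 when each mouse was left out. The cause was not tested.

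With the replicate block, 0 genes were called and Atp6v0d2 was at 1.94. Mice of the same number are different animals, and the deviations of same-numbered mice from their group means had correlations of -0.479, 0.486 and -0.300, so the numbers were not taken as pairs. Of 510 values of named genes under the alternatives, 504 stayed on their side of the threshold or within the spread, and 34 values, of 10 genes whose reported log2 fold change was at most 0.14 from 0, had the other sign. Atp6ap1 went from -0.12 to -0.27 without control 1 and SRF 3. Tcirg1, Acp5 and Rragc passed the threshold without control 1 and SRF 3, Acp5 and Rragc also with DESeq2.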
